A study of Mus musculus and Homo sapiens with 65 samples.

Results

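Transcripts of 10 p53 pathway and stress response genes were followed in late 2-cell mouse embryos. The genes were Trp53, Mdm2, Mdm4, Cdkn1a, Gadd45a, Ccng1, Sesn2, Bax, Bbc3 and Pmaip1. They were found by gene symbol among the 32287 genes of the deposited RNA-seq tables, and each symbol matched 1 gene. The 9 libraries fall into 4 groups. Wild-type embryos gave 3 libraries, and embryos given alpha-amanitin, which is a fungal poison and blocks RNA polymerase II, gave 2. Another 2 came from embryos whose zygotes were injected at 0.5 days post coitum with fluorescein-tagged morpholinos against Kdm5a and Kdm5b, and 2 from zygotes injected with mismatch control morpholinos for both genes. Morpholinos are antisense oligomers that act on the RNA of their target, and KDM5A and KDM5B are demethylases of lysine 4 of histone H3. Embryos of all groups were cultured in G1 plus medium to the late 2-cell stage. The strain of these embryos, the dose and timing of alpha-amanitin, and the number of embryos in a library are not given in the sources that were used.

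The protein p53, encoded by Trp53, is a transcription factor that is kept low by MDM2, an enzyme that marks it for degradation, and by the related protein MDM4, which binds p53 and holds back its activity. When DNA is damaged or a cell is stressed, p53 is released and switches on genes for cell cycle arrest (Cdkn1a, Gadd45a), for feedback on itself (Mdm2, Ccng1), for restraint of growth signalling (Sesn2) and for cell death (Bax, Bbc3, Pmaip1). The late 2-cell stage is when a mouse embryo begins wide transcription of its own genes and clears RNA stored in the egg, so a transcript at this stage can be stored, newly made, or both.

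The promoter sequences of 5 genes are shown for the contrast between them with alpha-amanitin. Cdkn1a, Mdm2, Gadd45a and Sesn2 fell under every setting tried, and Mdm4 was the only gene of the 10 called higher, with a call that was not stable. Each line holds the 250 bases before an annotated transcription start, 5′ to 3′ on the gene's strand, from RefSeq on GRCm38.p6. Capitals mark exact matches to RRRCWWGYYY, the pattern of the p53 decamer, where R is A or G, W is A or T and Y is C or T. The decamer is 1 arm of the p53 response element. Near matches are left in lower case, so neighbouring capitals need not be the arms of an element. Whether p53 binds at any of them was not tested. Both strands were searched, and the pattern reads the same on both.

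Cdkn1a, chr17:29090729-29090978, plus strand: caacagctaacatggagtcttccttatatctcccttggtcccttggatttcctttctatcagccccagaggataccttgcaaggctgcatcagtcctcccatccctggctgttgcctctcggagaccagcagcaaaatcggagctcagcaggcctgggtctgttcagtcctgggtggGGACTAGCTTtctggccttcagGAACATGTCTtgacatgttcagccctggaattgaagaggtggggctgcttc
Mdm2, chr10:117710759-117711008, minus strand: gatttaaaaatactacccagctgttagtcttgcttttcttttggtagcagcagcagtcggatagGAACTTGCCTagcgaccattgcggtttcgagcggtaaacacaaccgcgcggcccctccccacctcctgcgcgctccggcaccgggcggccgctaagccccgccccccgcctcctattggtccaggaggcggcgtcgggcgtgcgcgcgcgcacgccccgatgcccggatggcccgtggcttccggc
Gadd45a, chr6:67037408-67037657, minus strand: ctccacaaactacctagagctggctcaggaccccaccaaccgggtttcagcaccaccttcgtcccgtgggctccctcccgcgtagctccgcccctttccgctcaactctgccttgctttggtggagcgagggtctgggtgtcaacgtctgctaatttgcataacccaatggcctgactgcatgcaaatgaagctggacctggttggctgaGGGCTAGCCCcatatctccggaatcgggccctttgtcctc
Sesn2, chr4:132510457-132510706, minus strand: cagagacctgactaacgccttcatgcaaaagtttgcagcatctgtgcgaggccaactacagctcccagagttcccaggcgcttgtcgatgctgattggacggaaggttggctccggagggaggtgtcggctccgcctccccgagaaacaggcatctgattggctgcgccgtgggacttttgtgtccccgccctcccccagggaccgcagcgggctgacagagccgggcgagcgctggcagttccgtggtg
Mdm4, chr1:133030588-133030837, minus strand: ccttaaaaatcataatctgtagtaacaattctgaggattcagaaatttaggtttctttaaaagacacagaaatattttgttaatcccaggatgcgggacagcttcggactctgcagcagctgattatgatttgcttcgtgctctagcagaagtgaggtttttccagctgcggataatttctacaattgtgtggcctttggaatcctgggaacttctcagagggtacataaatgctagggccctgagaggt

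Promoters of 9 of the 10 genes were searched, in 13 windows from RefSeq. Pmaip1 was left out of the search, so nothing is said here of its promoter. The decamer lay in 6 of these 13 windows, each of a different gene, and in 7.126% of all 32851 promoter windows of this length. The genes were chosen as p53 pathway genes, many of them p53 targets, and some windows of Bbc3 overlap. The difference between these shares was therefore not tested and is not a finding about the genes. Cdkn1a held 2 copies before its upstream start, GGACTAGCTT and GAACATGTCT, and no copy before its downstream start. Mdm2 held GAACTTGCCT, Gadd45a GGGCTAGCCC, Trp53 GGACTTGCCC, Ccng1 GGGCAAGCCT and Bax AGGCAAGCTT. The windows of Sesn2, Mdm4 and Bbc3 held no copy, which says only that these letters are not in these windows. The groups with and without the decamer did not divide the genes by their response to alpha-amanitin, because Sesn2 fell without one and Trp53 and Ccng1 did not pass the test with one. The motif GGGCGG, searched on both strands, lay in 32.74% of all windows, and in those of Mdm2, Gadd45a, Sesn2, Bax, Bbc3 and the downstream start of Cdkn1a. CCAAT, also searched on both strands, lay in 33.85% of all windows and in those of Trp53, Mdm2, Gadd45a, Ccng1 and Sesn2 and in 1 window of Bbc3. GC content was 65.6% in the Mdm2 window and 63.2% in the Sesn2 window, against 41.6% in the Mdm4 window shown and a median of 52.4% over all windows.

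Levels are FPKM as deposited, fragment counts corrected for gene length and for the total mapped in that library. Libraries without alpha-amanitin had 10611 to 11228 genes at an FPKM of 1 or more, and the alpha-amanitin libraries had 7977 and 7935. Of 15 marker genes of the late 2-cell embryo, 14 were in the files. Their summed level was 327 to 505 FPKM without alpha-amanitin and 15.3 and 16.5 FPKM with it. The summed level of 12 genes stored in the oocyte was 565 to 771 FPKM without and 1177 and 1213 FPKM with it. Bmp15 and Oosp1 carried most of that sum, and of the 10 genes of this set that were tested, 1 was called higher with alpha-amanitin than in wild type. Of 10 cumulus and granulosa markers, 7 stayed under 1 FPKM in all 9 libraries, with Inha and Foxl2 at 0 in each, while Nr5a2 was at 12.9 to 23.9 FPKM without alpha-amanitin and at 3.62 and 1.81 FPKM with it, and Tnfaip6 reached 3.42 FPKM. Of the blood markers, Hbb-bs and Hbb-bt were at 0 in all 9 libraries and Hba-a1 reached 4.62 FPKM. Hba-a2 was at 0 in wild-type and alpha-amanitin libraries and at 1.15 to 5.72 FPKM in the 4 injected ones. The summed level of 6 oviduct markers was 22.4 to 64.2 FPKM without alpha-amanitin and 0.00151 and 1.56 FPKM with it. Epcam carried most of that sum, at 19.4 to 58.5 FPKM without alpha-amanitin, and Pax8, Foxj1 and Krt8 stayed under 1 FPKM in all 9 libraries. The part of these markers in the results was not tested. Kdm5a stood at 19.5 and 15.3 FPKM with its morpholino and at 12.8 and 9.44 FPKM after mismatch injection, and Kdm5b at 38.1 and 27.6 against 55.3 and 39.6 FPKM. A morpholino can block translation without removing the RNA, so these levels do not check the injections. In bulk libraries, fewer cells of a type and less RNA per cell cannot be told apart.

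Mdm4 was by far the most abundant transcript of the 10, and it was the only one that rose with alpha-amanitin. The gene lies on chromosome 1 of mm10 (ENSMUSG00000054387.8, chr1:132959484-133030561). It stood at 937, 977 and 904 FPKM in wild-type libraries, at 1317 and 1248 FPKM with alpha-amanitin, at 874 and 977 FPKM after mismatch injection and at 717 and 818 FPKM after Kdm5a+b injection. Both alpha-amanitin libraries lay above all 7 others. Its rank among all 32287 genes by group mean was 9 in wild type, 6 with alpha-amanitin, 8 after mismatch injection and 10 after Kdm5a+b injection. Mdm4 alone made up 72.2% to 79.9% of the summed FPKM of the 10 genes in the 7 libraries without alpha-amanitin, and 95.5% and 96.8% with it.

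The rise of Mdm4 was small, and its call was not stable. The difference in log2(FPKM + 1) was 0.45 (SE 0.14, 95% interval 0.14 to 0.76), with an adjusted p of 0.0359 by limma with Benjamini-Hochberg adjustment over all genes tested. Over 16 alternative settings the log2 difference stayed above 0, from 0.24 to 0.60, but the adjusted p ranged from 0.00557 to 0.435 and passed in 6. Leaving out wild-type replicate 1 gave 0.0644, wild-type replicate 3 0.0905, alpha-amanitin replicates 1 and 2 0.230 and 0.164, and Kdm5a+b replicate 2 0.0524. Its deposited FPKM lay above its own deposited upper bound in 6 libraries, among them every wild-type library. In both alpha-amanitin libraries it lay within the bounds, so this flaw runs along the comparison, and its part in the rise was not tested. A near-identical pseudogene copy, Mdm4-ps on chromosome X, was listed at 55.9, 60.3 and 59.1 FPKM in wild type and at 80.0 and 78.1 FPKM with alpha-amanitin, so reads of the pair may have been divided between them.

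Mdm2 (ENSMUSG00000020184.9, chr10:117688888-117710758), the E3 ubiquitin ligase of p53 and itself a p53 target, fell with alpha-amanitin. Mdm2 was also lower in every injected library than in wild type, but that difference did not pass the test (limma adjusted p = 0.555). It stood at 92.3, 107 and 122 FPKM in wild type, at 38.9 and 30.0 FPKM with alpha-amanitin, at 62.8 and 71.6 FPKM after mismatch injection and at 47.7 and 59.4 FPKM after Kdm5a+b injection. The wild-type libraries were the 3 highest, the injected libraries came next and the alpha-amanitin libraries were the 2 lowest, with no overlap. Of all genes tested, 4.1% had every injected library below every wild-type library, and 41.1% had both alpha-amanitin libraries below them. With alpha-amanitin its mean was 3.11-fold lower than in wild type, and the log2 difference was -1.61 (SE 0.25, limma adjusted p = 0.000733). Its FPKM lay outside the deposited bounds in 5 libraries.

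The ratio of Mdm4 to Mdm2 within a library is free of any single factor by which that library was scaled. It was 10.2, 9.10 and 7.41 in wild type, 33.9 and 41.5 with alpha-amanitin, 13.9 and 13.7 after mismatch injection and 15.0 and 13.8 after Kdm5a+b injection. The 3 wild-type ratios were the lowest, those of the 4 injected libraries lay close together, and those with alpha-amanitin were highest. A ratio shows that the genes changed unequally, not which of them changed.

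**Figure D1:**
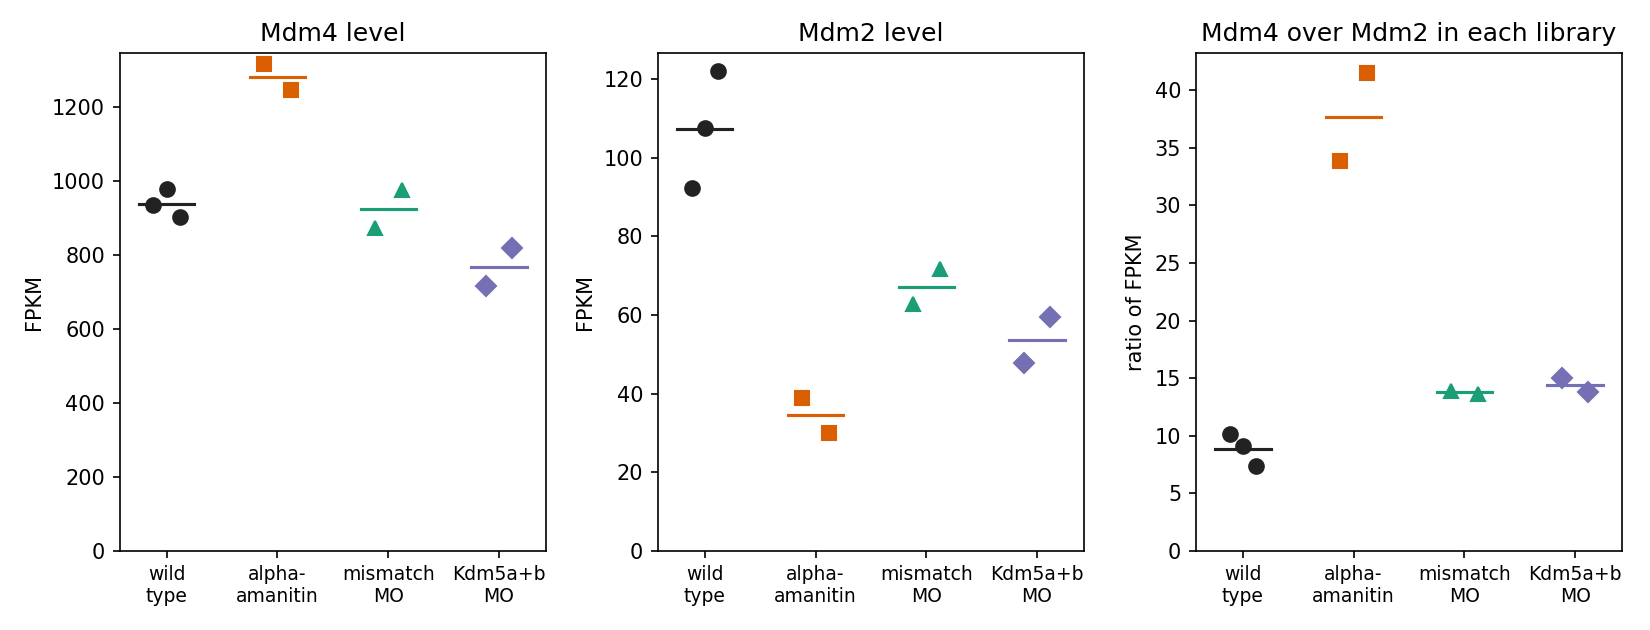
Level of Mdm4 and Mdm2 in FPKM and the ratio of Mdm4 to Mdm2, by group, with 1 point per library and a line at the group mean. Mdm4 is highest with alpha-amanitin at 1317 and 1248 FPKM, where Mdm2 is lowest at 38.9 and 30.0 FPKM, and the ratio rises from 7.41 to 10.2 in wild type to 33.9 and 41.5.

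Trp53 itself (ENSMUSG00000059552.8, chr11:69580359-69591873) was modest in level and varied widely between wild-type replicates. It stood at 7.03, 17.0 and 4.62 FPKM in wild type, at 7.63 and 2.00 FPKM with alpha-amanitin, at 18.1 and 10.9 FPKM after mismatch injection and at 13.5 and 13.6 FPKM after Kdm5a+b injection. All groups overlapped the range of the wild-type libraries. The log2 difference of alpha-amanitin from wild type was -0.88 (SE 0.58, limma adjusted p = 0.285), and it was 0.08 after quantile normalization. Mdm4 stood 57.5 to 196 times above Trp53 in wild-type libraries and Mdm2 6.33 to 26.4 times above it, both on the FPKM scale.

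Cdkn1a (ENSMUSG00000023067.8, chr17:29090979-29100722) encodes p21, the inhibitor of cyclin-dependent kinases through which p53 halts the cell cycle. It stood at 89.7, 36.0 and 102 FPKM in wild type, at 11.4 and 4.49 FPKM with alpha-amanitin, at 84.7 and 69.0 FPKM after mismatch injection and at 120 and 83.1 FPKM after Kdm5a+b injection. Both alpha-amanitin libraries lay below all 7 others, and the other 3 groups overlapped. Its mean was 9.52-fold lower with alpha-amanitin than in wild type (log2 difference -3.08, SE 0.47, limma adjusted p = 0.000708). Without alpha-amanitin replicate 1 the log2 difference was -3.67 and without replicate 2 it was -2.50, a change of the fold by over 1.5 times, and the call held in both.

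Gadd45a (ENSMUSG00000036390.6, chr6:67035096-67037457), whose protein acts in growth arrest and DNA repair and in the activation of stress kinases, was nearly lost with alpha-amanitin. It stood at 15.1, 17.3 and 20.8 FPKM in wild type, at 0.0596 and 0.873 FPKM with alpha-amanitin, at 28.1 and 29.9 FPKM after mismatch injection and at 33.5 and 17.6 FPKM after Kdm5a+b injection. The mean was 38.0-fold lower with alpha-amanitin (log2 difference -3.72, SE 0.40, limma adjusted p = 6.96e-05). That fold moves with the library: the wild-type mean was 297 times the level of alpha-amanitin replicate 1 and 20.3 times that of replicate 2, and the gene was called lower without either. Of the 4 injected libraries, 3 lay above all wild-type libraries and Kdm5a+b replicate 2 lay within their range.

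Ccng1 (ENSMUSG00000020326.7, chr11:40748552-40755311) encodes cyclin G1, a p53 target that acts back on the p53 and MDM2 pair. Its levels were 8.66, 5.00 and 5.52 FPKM in wild type and 2.75 and 4.23 FPKM with alpha-amanitin. It was at 8.23 and 7.15 FPKM after mismatch injection and at 4.42 and 5.48 FPKM after Kdm5a+b injection. The alpha-amanitin libraries were lower than all wild-type libraries, yet the log2 difference of -0.71 (SE 0.41) had a limma adjusted p of 0.228, and it was 0.28 after quantile normalization.

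Sesn2 (ENSMUSG00000028893.8, chr4:132492032-132510501), a stress-induced sestrin that restrains mTORC1 when leucine is short, showed the widest difference of the 10. It stood at 66.5, 52.4 and 57.6 FPKM in wild type, at 0.190 and 0.126 FPKM with alpha-amanitin, at 63.6 and 51.3 FPKM after mismatch injection and at 50.3 and 48.7 FPKM after Kdm5a+b injection. Its mean was 373-fold lower with alpha-amanitin than in wild type (log2 difference -5.69, SE 0.28, limma adjusted p = 1.52e-06). The wild-type mean was 310 times the level of alpha-amanitin replicate 1 and 468 times that of replicate 2. Those low levels had deposited bounds with half-widths of 36.3% and 91.8%, so the size of the fold is loose. In wild type it was close to Cdkn1a in level, with Sesn2 to Cdkn1a ratios of 0.741, 1.46 and 0.568, and with alpha-amanitin the ratio was 0.0166 and 0.0280. The annotated transcript Gm12981, which overlaps Sesn2 over 6089 bases, was at or under 0.411 FPKM in all 9 libraries.

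The 3 genes of the cell death branch were low, but not they alone. The wild-type mean of Bax was 6.72 FPKM, against 6.39 FPKM for Ccng1. Pmaip1 (ENSMUSG00000024521.7, chr18:66458604-66465550) encodes NOXA, a BH3-only protein that disables MCL1. Its wild-type levels were 2.12, 1.68 and 5.70 FPKM, and both alpha-amanitin libraries listed it at 0. It was at 3.34 and 2.46 FPKM after mismatch injection and at 4.24 and 3.37 FPKM after Kdm5a+b injection. The log2 difference of alpha-amanitin from wild type was -1.94 (SE 0.51, limma adjusted p = 0.0160). This call was lost without alpha-amanitin replicate 1 (adjusted p = 0.0746), without replicate 2 (0.0775) and with a block for replicate number (0.0602).

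Bax (ENSMUSG00000003873.10, chr7:45461695-45466898), which permeabilises the outer mitochondrial membrane, stood at 1.88, 8.85 and 9.44 FPKM in wild type. It was at 1.82 FPKM and listed at 0 with alpha-amanitin, at 9.72 and 2.19 FPKM after mismatch injection and at 2.36 and 4.61 FPKM after Kdm5a+b injection. The log2 difference was -1.99 (SE 0.75, limma adjusted p = 0.0715). It passed in 2 of 16 alternatives, without the low wild-type replicate 1 (adjusted p = 0.0250) and with a pseudocount of 0.1 (0.0486), and the adjusted p reached 0.380. The log2 difference ran from -2.74 without alpha-amanitin replicate 1 to -1.24 without replicate 2, and was -1.19 after quantile normalization. Bbc3 (ENSMUSG00000002083.7, chr7:16309616-16318205), which encodes the BH3-only protein PUMA, reached 1 FPKM only in the mismatch controls, at 1.18 and 1.16 FPKM. It passed the filter on low values through those libraries alone. It stood at 0.525, 0.209 and 0.108 FPKM in wild type, at 0.00738 FPKM and 0 with alpha-amanitin and at 0.711 and 0.143 FPKM after Kdm5a+b injection. Its difference from wild type with alpha-amanitin was -0.34 on the log2 scale (SE 0.40, limma adjusted p = 0.552), and 0.07 after quantile normalization.

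**Figure D2:**
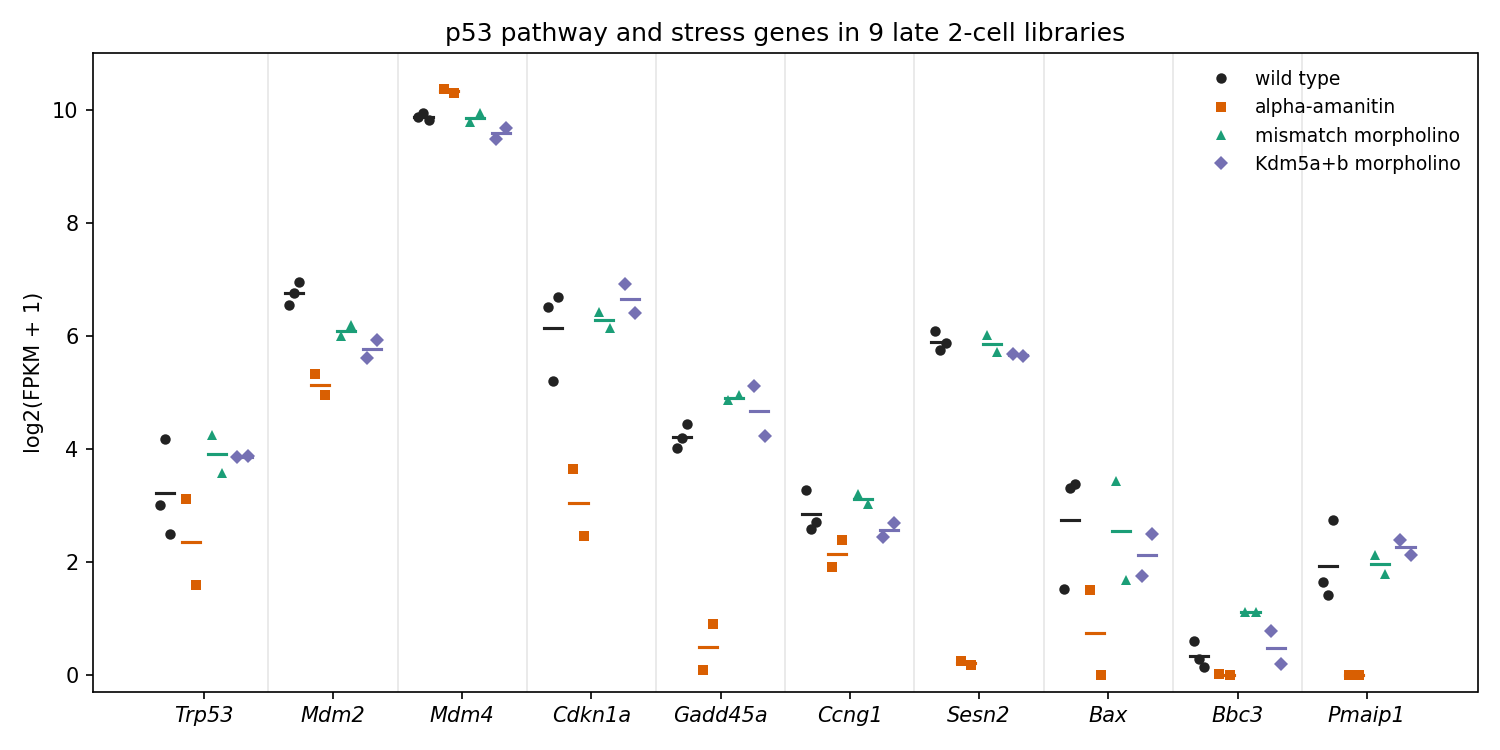
Level of the 10 genes as log2(FPKM + 1), with 1 symbol per library and a line at each group mean. Mdm4 sits above the other 9 genes in every library. Every gene but Trp53 and Mdm4 has its alpha-amanitin libraries below all wild-type libraries, with a narrow gap for Ccng1, Bax and Bbc3. Bbc3 passed the filter on low values only through the mismatch libraries. Of all genes tested, 41.1% have both alpha-amanitin libraries below all wild-type libraries.

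Counted together, 5 of the 10 genes passed the limma test as lower with alpha-amanitin (Mdm2, Cdkn1a, Gadd45a, Sesn2 and Pmaip1), 1 as higher (Mdm4) and 4 did not pass. Of all 13137 genes tested, 25.1% were called lower and 4.31% higher. In 8 of the 10 genes both alpha-amanitin libraries lay below all wild-type libraries, and in 1 above, against 41.1% and 13.4% of all genes tested. Without Bbc3, which passed the filter on low values only through the mismatch libraries, 7 of 9 genes lay below. Gadd45a, Sesn2 and Pmaip1 reached 1 FPKM only in the 7 libraries without alpha-amanitin, so they passed the filter through those libraries alone. The median log2 difference of the 10 was -1.77, or -1.94 without Bbc3, and that of all genes tested was -0.56. The balance of calls depends on scaling. Of all genes called, 85.4% were lower, and after quantile normalization 51.3% were lower, when the median of all genes tested moved to 0.17. It was -0.75 on TPM. The median of the 10 genes was -1.33 after quantile normalization and -2.23 on TPM. Mdm2, Cdkn1a, Gadd45a and Sesn2 were called lower under all 16 alternatives, with log2 differences of -1.79 to -1.43 for Mdm2, -3.67 to -2.46 for Cdkn1a, -5.49 to -2.78 for Gadd45a and -7.84 to -4.83 for Sesn2. The smallest two-sided p of an exact permutation test of 3 libraries against 2 is 0.2, so the calls rest on limma's model of the spread. With only the 5 libraries of these groups in the fit, the same 5 genes were called lower, with adjusted p from 0.00157 for Sesn2 to 0.0486 for Pmaip1.

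**Figure D3:**
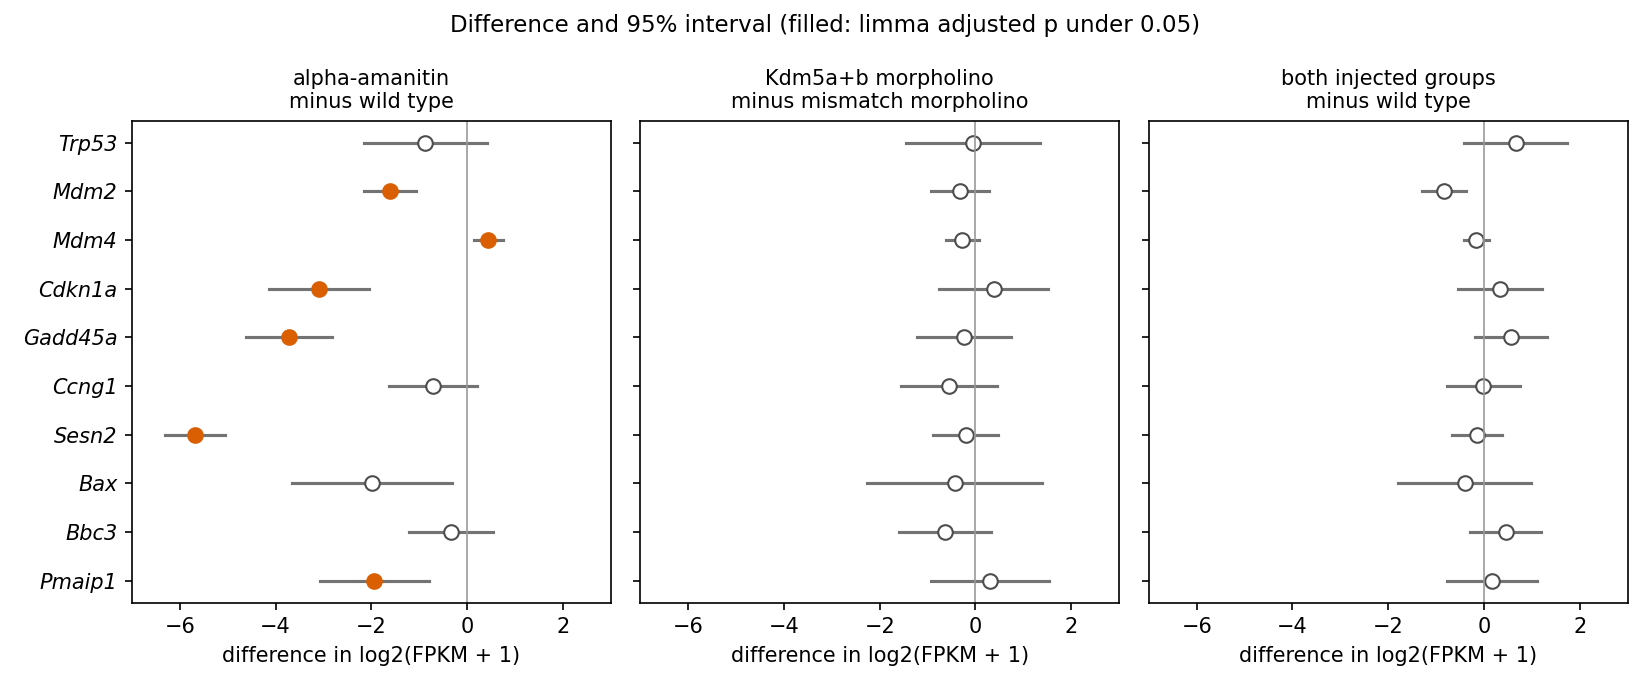
Difference in log2(FPKM + 1) for each of the 10 genes in the 3 comparisons, with 95% intervals and filled points where limma's adjusted p is under 0.05. With alpha-amanitin 5 genes are called lower and Mdm4 higher, and no gene is called in the other 2 panels.

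The Kdm5a+b morpholinos were compared with the mismatch morpholinos, so that embryos of both groups were injected. Whether KDM5A and KDM5B protein was lost cannot be seen in these RNA data. None of the 10 genes passed the limma test (adjusted p = 1 for each), none had an unadjusted p under 0.05, and 0% of all genes tested were called in either direction, with 414 of 13137 at an unadjusted p under 0.05. Mdm4, at 717 and 818 against 874 and 977 FPKM, and Mdm2, at 47.7 and 59.4 against 62.8 and 71.6 FPKM, lay below the controls without overlap. The log2 differences were -0.27 for Mdm4 (95% interval -0.61 to 0.07) and -0.33 for Mdm2 (-0.93 to 0.27). Without Bbc3, 4 of 9 genes lay below without overlap (Mdm2, Mdm4, Ccng1 and Sesn2) and 1 above (Pmaip1), against 16.8% and 16.5% of all genes tested. Bbc3 also lay below, but it passed the filter only through the mismatch libraries, so it had to be high in them and is not counted.

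Among the other genes of this comparison, Cdkn1a differed by 0.38 on the log2 scale (95% interval -0.76 to 1.52), Sesn2 by -0.20 (-0.88 to 0.48) and Trp53 by -0.06 (-1.46 to 1.35). For Cdkn1a and Trp53 these intervals reach past 1 on the log2 scale. The median of the 10 was -0.26, or -0.24 without Bbc3. The smallest two-sided p of an exact permutation test of 2 libraries against 2 is 0.333.

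Both injected groups were then set against wild type, a comparison that uses the same wild-type libraries as that with alpha-amanitin. Mdm2 was the only gene of the 10 whose 4 injected libraries, at 47.7 to 71.6 FPKM, did not overlap the wild-type range of 92.3 to 122 FPKM. Such separation was seen in 4.1% of all genes tested as lower and 4.12% as higher. Its mean over injected libraries was 56.3% of the wild-type mean, and the log2 difference was -0.82 (SE 0.21, 95% interval -1.28 to -0.37, unadjusted p = 0.00239 by limma). Adjusted over all genes tested the p was 0.555, so the difference failed the correction, and its adjusted p lay between 0.400 and 0.999 over 18 alternatives. With mismatch controls alone as the injected group the log2 difference was -0.66, and with the Kdm5a+b libraries alone it was -0.99.

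The remaining 9 genes overlapped between injected and wild-type libraries. Their log2 differences ran from -0.40 for Bax to 0.67 for Trp53, with Gadd45a at 0.57 (95% interval -0.18 to 1.32), Cdkn1a at 0.34, Pmaip1 at 0.17 and Mdm4 at -0.16, and the median of all 10 was 0.08, or -0.01 without Bbc3, which passed the filter only through injected libraries. None of the 13137 genes tested was called in either direction, that is 0%, while 903 had an unadjusted p under 0.05. The smallest two-sided p that an exact permutation test allows with 4 libraries against 3 is 0.0571. Side by side, Mdm2 stood at -1.61 with alpha-amanitin and -0.82 with injection, while Sesn2 stood at -5.69 and -0.14, Gadd45a at -3.72 and 0.57, and Cdkn1a at -3.08 and 0.34. These pairs share their wild-type libraries and are not independent of each other.

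Genes around p53 were read from 6 lists that leave out the 10 genes, and each list held genes that fell with alpha-amanitin, against the 25.1% of all genes tested that were called lower and the 4.31% called higher. After quantile normalization these shares were 13.7% and 13.1%. Of 33 tested regulators of p53, 9 fell and 4 rose, with a median log2 difference of -0.40. After quantile normalization 7 were lower and 9 higher, with a median of 0.30. Hipk1, a kinase that phosphorylates p53, fell from 145, 176 and 186 FPKM to 0.776 and 0.679 FPKM (log2 difference -6.61, limma adjusted p = 1.69e-07). Its relative Hipk2 rose from 44.6, 43.6 and 46.3 FPKM to 109 and 115 FPKM (1.30, adjusted p = 0.00246). The checkpoint kinase gene Chek2 fell from a mean of 14.0 to 0.253 FPKM (-3.56). Ube2d1, a ubiquitin-conjugating enzyme, was called higher at 8.00 and 32.3 FPKM against 4.81, 0.427 and 0 FPKM (3.10, adjusted p = 0.0178). That call was lost without wild-type replicate 2 (0.0531), wild-type replicate 3 (0.0574) or alpha-amanitin replicate 2 (0.167), with the replicate block (0.0713), with only the groups compared (0.0636) and with no filter on low values (0.108).

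Of 25 tested p53 targets for arrest and repair, 10 fell and none rose, with a median of -1.47, and after quantile normalization 5 were lower and 1 higher, with a median of -0.53. These genes were not split by whether p53 raises or lowers them, so the counts give no direction of p53 activity. E2f7, a repressor of E2F target genes, fell from a mean of 20.1 to 0.143 FPKM (log2 difference -4.21). Cdc25c, a phosphatase that drives entry into mitosis, fell from 21.6 to 0.276 FPKM (-4.17). Of 28 genes of the apoptosis machinery, 6 fell and 1 rose, with a median of -0.31, and after quantile normalization 5 were lower and 2 higher, with a median of 0.27. Diablo, whose protein relieves inhibition of caspases, fell from a mean of 36.9 to 3.13 FPKM (log2 difference -3.17, limma adjusted p = 0.000197). Bcl2l10, a BCL2 family gene, was called higher at 235 and 243 FPKM against 162, 99.6 and 112 FPKM (0.97, adjusted p = 0.0120). That call was lost without alpha-amanitin replicate 1 (0.0544) or 2 (0.0689), after quantile normalization (0.0886) and without the trend in limma (0.0710).

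Of 33 genes of sestrin and mTORC1 nutrient signalling, 5 fell and none rose, with a median of -0.86, and after quantile normalization 2 were lower and 2 higher, with a median of -0.09. Ddit4, an mTORC1 inhibitor, fell from a mean of 37.8 to 5.57 FPKM (log2 difference -2.61). Ddit4l, its relative, fell from 11.6 to 1.96 FPKM (-2.15, limma adjusted p = 0.00188, and 0.0526 after quantile normalization). Of 25 Gadd45 and stress kinase entries, in which Map3k4 appears more than once, 7 fell and 1 rose, with a median of -0.87. After quantile normalization 4 were lower and 5 higher, with a median of -0.30. Ier3, an immediate early gene, had wild-type levels of 12.2, 7.15 and 13.8 FPKM, and both alpha-amanitin libraries listed it at 0 (log2 difference -3.55). The stress-activated kinase gene Mapkapk2 fell from 8.15 to 0.157 FPKM (-2.95). Map2k6, an upstream kinase of p38, was called higher at 7.97 and 8.22 FPKM against 1.16, 1.86 and 2.11 FPKM (1.76, adjusted p = 0.0267). Its call was lost without wild-type replicate 1 (0.0645), alpha-amanitin replicate 1 (0.104) or 2 (0.117) and with no filter on low values (0.0633).

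Of 23 CDK inhibitor and G1 kinase genes, the machinery on which p21 acts, 9 fell and 1 rose, with a median of -0.92, and after quantile normalization 7 were lower and 2 higher, with a median of -0.12. Ccne1, cyclin E1, fell from 62.9, 49.6 and 65.7 FPKM to 1.75 and 3.04 FPKM (log2 difference -4.17, limma adjusted p = 6.26e-06). Its partner kinase gene Cdk2 fell from a mean of 16.3 to 0.272 FPKM (-3.78). E2f5 was called higher at 111 and 121 FPKM against 69.3, 53.4 and 70.2 FPKM (0.85, adjusted p = 0.0244). The E2f5 call was lost without wild-type replicate 2 (0.0557), alpha-amanitin replicate 1 (0.0722) or 2 (0.118), after quantile normalization (0.0619) and without the trend in limma (0.0965).

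**Figure D4:**
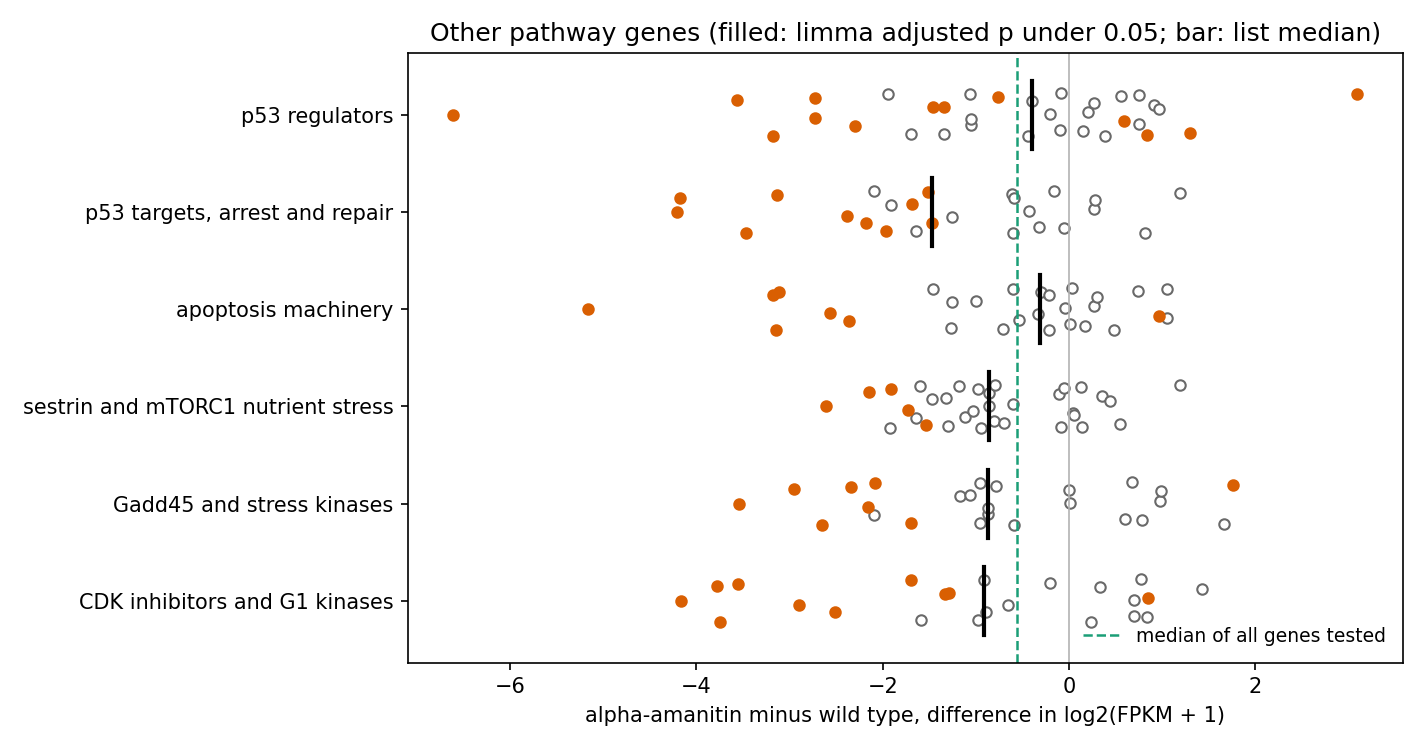
Difference in log2(FPKM + 1) between alpha-amanitin and wild type for each tested gene of 6 pathway lists, with filled points where limma's adjusted p is under 0.05, a bar at each list's median and a dashed line at the median of all genes tested, -0.56. The list medians lie between -1.47 for arrest and repair targets and -0.31 for the apoptosis machinery, and their order differs on TPM and after quantile normalization.

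In the other comparisons no gene of the 6 lists passed the limma test. Between the Kdm5a+b and mismatch morpholinos the list medians ran from -0.15 to 0.20. The smallest unadjusted p in the lists belonged to Srxn1, which encodes the antioxidant enzyme sulfiredoxin, at 1.22 and 0.549 against 4.72 and 5.84 FPKM (log2 difference -1.75, unadjusted p = 0.00555 by limma, adjusted p = 1). Bcl2l1, which encodes BCL-XL, stood at 28.5 and 23.8 FPKM against 17.0 and 11.7 FPKM (0.84), Brd7 differed by 0.69, Gadd45g by 1.06 and Cdk2 by -0.75, each with an adjusted p of 1.

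Between injected and wild-type libraries the list medians ran from -0.14 to 0.09. Trp73, which encodes the p53 relative p73, stood at 5.18, 3.41, 4.04 and 3.82 FPKM in injected libraries and at 0.145, 1.53 and 0.520 FPKM in wild type, without overlap (log2 difference 1.63, unadjusted p = 0.00228, limma adjusted p = 0.555). The alpha-amanitin libraries had 2.32 and 2.09 FPKM of it. Bcl2l1 was lower in all 4 injected libraries, at 11.7 to 28.5 FPKM, than in wild type, at 30.5 to 38.0 FPKM (-0.84, adjusted p = 0.633). Ei24 differed by -0.61, Gclc by 1.06, Gadd45g by 1.01 and Cdkn2c by 0.73, with adjusted p between 0.633 and 0.730. Gadd45g was near the floor, at 0, 1.29 and 0.493 FPKM in wild type. In injected libraries it stood at 0.514, 1.92, 3.81 and 3.00 FPKM, and it would not have passed the filter on low values without them.

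The genes whose pattern over the 9 libraries was most like that of Mdm4, Mdm2 and Cdkn1a were taken from the tested genes with a wild-type mean of at least 10 FPKM, by Pearson's r of log2(FPKM + 1), as a description. For Mdm4 they were its copy Mdm4-ps (r = 0.973) and Stt3b (r = 0.970), a subunit of an enzyme that glycosylates proteins. For Mdm2 they were Acvr2a (r = 0.960), an activin receptor, and Fubp3 (r = 0.955), and over the 7 libraries without alpha-amanitin r was 0.917 and 0.929. Acvr2a stood at 7.94, 12.3 and 13.3 FPKM in wild type, at 2.10 and 0.792 FPKM with alpha-amanitin and at 2.33 to 6.54 FPKM in injected libraries. For Cdkn1a they were Rab11fip5 (r = 0.986) and Plk1 (r = 0.985), the mitotic polo-like kinase, with r of 0.843 and 0.916 without alpha-amanitin. The libraries share groups and are not independent points.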

How the data were processed

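RNA-seq of 9 late 2-cell libraries was analysed; ChIP-seq, bisulfite and other libraries were left out. Per the file headers, the authors deposited 1 Cufflinks-style table per library with the FPKM of 32287 genes, bounds and a status. The tools, per the submitters' processing notes and without their roles, were BWA, Picard, Cufflinks, Trimmomatic, Bismark 12.5 and SAMtools, on mm10. Which tool aligned the RNA-seq reads, and the annotation release, is not given in the sources used here. FPKM is relative to the library's own total, and depth in reads is unknown because read counts cannot be recovered from these estimates. The half-width of the bounds, relative to the FPKM, had a median of 22.2% to 34.3% per library.

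The value tested was log2(FPKM + 1), with limma 3.58.1 under R 4.3.3. Genes reaching an FPKM of 1 in at least 2 libraries were kept, 13137 in all. Group was the only term, eBayes used a trend, 5 residual degrees of freedom were shared, and tests were two-sided with Benjamini-Hochberg adjustment and a threshold of 0.05. Differences on this scale understate changes of low genes. The script was tested on simulated data with 200 changed genes. Nothing in the labels says that replicates are separate embryo collections, so p-values measure only the spread between libraries, and this may be technical.

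The members and lists were chosen with earlier results of these data known, so no list was tested as a set. All 10 genes are named. In each list and comparison the named genes are the 2 called genes with the largest fall and the 2 with the largest rise or, with no call, the gene with the smallest p. One gene that this rule names is not reported here. Likeness took the 2 genes with the highest r for each of the 3 members highest in wild type. Alternatives were a pseudocount of 0.1, no filter, TPM, quantile normalization, a block for replicate number, only the groups compared, no trend, each library left out, and each injected group alone. Positions are those of the files; promoters are from RefSeq on GRCm38.p6. Motif shares count windows. Sperm and blood markers summed to at most 5.96 and 11.0 FPKM, and cumulus markers to 15.6 to 26.2 FPKM without alpha-amanitin and 2.30 and 4.34 FPKM with it.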

Additional observations from a re-analysis of the deposited data

How the results depend on the processing

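With alpha-amanitin, the count of the 10 genes called higher went from 1 to 0 with no filter on low values, after quantile normalization, with a block for replicate number, with only the groups compared and without the trend, and ranged from 0 to 1 when each library was left out. Over all genes tested, 3299 were called lower and 566 higher. Quantile normalization gave 1806 lower and 1716 higher, the block 371 higher and only the groups compared 339 higher. Leaving out each library gave 2378 to 3155 lower and 298 to 502 higher, where the 362 and 298 higher were those without alpha-amanitin replicates 1 and 2 in turn; the cause was not tested. For the Kdm5a+b against the mismatch morpholinos, no filter gave 10 genes lower and 17 higher, and leaving out each library gave 0 to 1 lower and 0 to 3 higher. For injected against wild type, no filter gave 11 higher, leaving out each library gave 0 to 2 lower and 0 to 1 higher, and the Kdm5a+b libraries alone gave 1 higher. On TPM the level relative to wild type moved by more than 1 SD of the group's own libraries, the spread of wild type not counted, for Trp53 with Kdm5a+b morpholinos (1.39, from 1.42), Mdm4 with alpha-amanitin (1.52, from 1.36), Sesn2 with Kdm5a+b morpholinos (0.815, from 0.841) and Bbc3 in mismatch controls (4.22, from 4.16). None of the 10 genes and the named list genes that were called changed direction under these alternatives; other genes were not followed.

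The correlation of deviations from group means between same-numbered libraries ran from -0.0477 to 0.0410. In a group of 2 libraries the deviations mirror each other, so these low values do not exclude pairing. Across genes, r between mismatch and Kdm5a+b libraries was 0.926 for replicates 1 and 0.866 for replicates 2. It was 0.888 within the mismatch group and 0.902 within the Kdm5a+b group. With the replicate block, 2744 genes were called lower and 371 higher with alpha-amanitin and none in the other comparisons, where 423 and 785 genes had an unadjusted p under 0.05. Where a left-out library leaves a group with 1, that library is assumed to vary like the other groups. Depth is unknown, so no floor can be set under a level listed at 0.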
